A study of Sus scrofa domesticus with 12 samples.

Results

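Septins are GTP-binding proteins that join end to end into rods and then into filaments, rings and cages at the cell cortex, and they are counted as a component of the cytoskeleton beside actin, microtubules and intermediate filaments. Their names were stored as dates in the deposited table (SEPT2 as 2-Sep, for example), so a search by gene symbol does not find them. The rows taken here were those named N-Sep for septins 1 to 12 and 14 with a TPM of at least 1 in any library, which gave 8 rows of the 11506 genes in the table: 1-Sep, 2-Sep, 5-Sep, 6-Sep, 7-Sep, 8-Sep, 10-Sep and 11-Sep. The row 15-Sep was left out because it is probably the selenoprotein SEP15. TPM, the unit of the deposited values, is a gene's share of the transcripts in its library after correction for transcript length. Levels can thus be set side by side between septins within a limb. Between limbs a share also depends on the levels of the other genes, so the size of a difference depends on the scale.

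The muscle was the peroneus tertius (PT), the main dorsiflexor of the pig hind limb, taken 12 weeks after surgery from young adult female Yorkshire Cross pigs. Volumetric muscle loss (VML) is the surgical removal of a block of muscle with its basal lamina and satellite cells. The 12 libraries came from 11 pigs: 2 sham-operated limbs (pigs 025 and 026), in which the muscle was exposed and nothing removed, 2 non-repaired VML limbs (pigs 017 and 023), 2 VML limbs filled with Hya, a thiol-modified hyaluronan hydrogel (pigs 016 and 017), and 6 VML limbs repaired with an acellular extracellular matrix (ECM; pigs 013, 014, 018, 021, 022 and 024). The opposite limbs of pig 017 are thus in different groups, non-repaired and Hya. The labels call all 6 ECM limbs small intestinal submucosa (SIS), whereas the study describes urinary bladder matrix (UBM) for some of them, so they were kept as 1 group. The labels name no genetic change or drug in any group, and non-repaired and sham limbs share the absence of an implant.

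Septin rods are built from members of different sequence groups, because a member of one group can usually be replaced by another of the same group. SEPT1, SEPT2 and SEPT5 belong to the SEPT2 group, SEPT6, SEPT8, SEPT10 and SEPT11 to the SEPT6 group, and SEPT7 stands alone as the subunit that most rods share. A further subunit, SEPT9, is part of the longer rods. In dividing cells septins gather at the cleavage furrow, in interphase cells they associate with actomyosin bundles and with microtubules, and in neurons and platelets SEPT5 is known for restraining vesicle release. In skeletal muscle SEPT7 has been linked to the structure of the muscle fiber.

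All 10 N-Sep rows of the table matched a septin symbol in the RefSeq gene table of the Sscrofa11.1 assembly, in which no symbol of SEP followed by a digit is present. Rows for septins 3, 4 and 14 were not analysed here. In that assembly SEPT1 overlaps ZNF48 and lies beside MYLPF, a myosin light chain of fast muscle fibers. SEPT2 overlaps HDLBP, SEPT8 overlaps CCNI2 and the lncRNA LOC106509563, and SEPT5 lies between CLDN5, an endothelial junction gene, and GP1BB, a platelet receptor subunit. SEPT9 overlaps the protein-coding gene LOC106504796 and the lncRNA LOC110255962, and has 1 RefSeq transcript there. All 4 SEPT6-group genes lie beside a gene of the SOWAH family (SOWAHD, SOWAHA, SOWAHC and SOWAHB for SEPT6, SEPT8, SEPT10 and SEPT11). These positions are from Sscrofa11.1, whereas the study pseudoaligned its reads to an annotation of another pig genome build. Whether the same genes overlap in that annotation was not checked. The strand setting of the libraries is not given in the sources used here, so reads from overlapping genes could be shared. Septins of 1 group are similar enough that reads could also be split among them.

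The threshold left out 2 rows. The row 12-Sep, for a septin of the sperm tail, reached at most 0.103 TPM and was listed at 0 in 3 of 12 libraries. The row 9-Sep reached at most 0.0421 TPM and was listed at 0 in 7 of 12 libraries, so this row is nearly without signal in every group. Whether that reflects low SEPT9 RNA or how reads were assigned to this gene in the annotation the study used was not tested. Just inside the threshold stood 10-Sep, whose highest limb held 1.14 TPM, and the next member, 1-Sep, reached 4.21 TPM. Of the 8 members, 6 were at 1 TPM or more in all 12 limbs (2-, 5-, 6-, 7-, 8- and 11-Sep), 1-Sep in 9 limbs and 10-Sep in 1 limb.

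In injured muscle the septin pool was larger in TPM as deposited. The SEPT2 group held a larger share of it in every injured limb than in either sham limb, a description that was not tested. The septins of uninjured PT muscle were led by 7-Sep and 2-Sep at equal levels, 32.2 ± 5.16 and 32.1 ± 5.73 TPM (SD, n = 2 sham limbs), followed by 8-Sep at 16.9 ± 4.90 TPM. The remaining members stood at 5.33 ± 1.61 TPM for 6-Sep, 4.61 ± 1.84 TPM for 5-Sep, 3.33 ± 1.62 TPM for 11-Sep, 0.474 ± 0.228 TPM for 1-Sep and 0.208 ± 0.107 TPM for 10-Sep. Among these, the ranges of 6-, 5- and 11-Sep over the sham limbs overlapped, and 2-Sep was above 7-Sep in 1 of 2 sham limbs. In the 10 injured limbs the order was 2-Sep at 181 ± 35.3 TPM, 7-Sep at 96.2 ± 23.3 TPM, 8-Sep at 59.2 ± 17.5 TPM, 5-Sep at 38.2 ± 16 TPM, 6-Sep at 13.2 ± 3.88 TPM, 11-Sep at 10.003 ± 2.84 TPM, 1-Sep at 1.83 ± 1.08 TPM and 10-Sep at 0.50 ± 0.272 TPM. Here 2-Sep was above 7-Sep in 10 of 10 limbs and 5-Sep above 6-Sep in 10 of 10, whereas 6-Sep was above 11-Sep in 9 of 10.

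**Figure D1:**
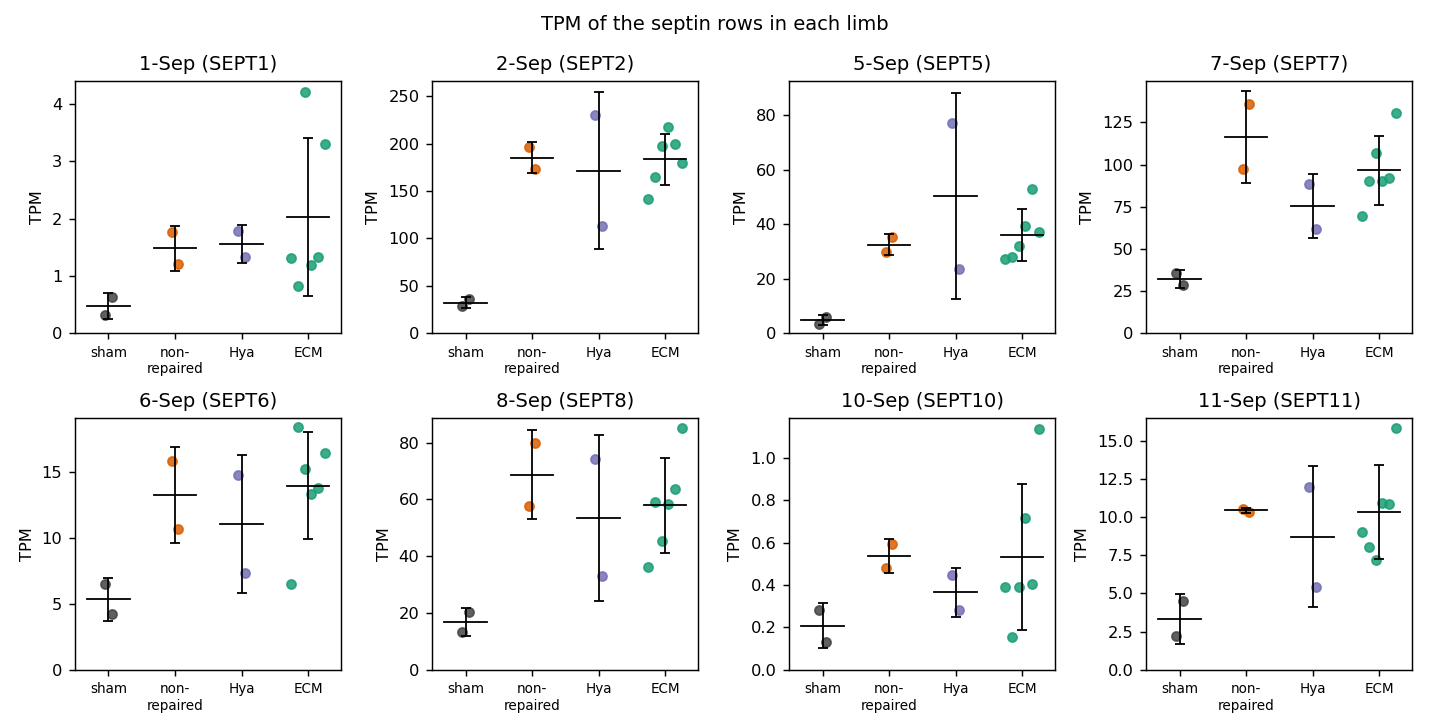
TPM of each septin row (y axes, linear, from 0, a scale per panel) in each limb, by group (sham n = 2, non-repaired n = 2, Hya n = 2, ECM n = 6); points are limbs, bars the mean and whiskers the SD. For 7 of the 8 rows every injured limb lies above both sham limbs, and for 10-Sep 8 of 10 injured limbs do. Every injured limb was also above both sham limbs for 49.8% of the 8782 genes tested.

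The row 2-Sep stands for the subunit after which the SEPT2 group is named, found in most cell types. It was at 28.1 and 36.2 TPM in the sham limbs of pigs 025 and 026, 197 and 173 TPM in the non-repaired limbs of pigs 017 and 023, and 230 and 113 TPM in the Hya-repaired limbs of pigs 016 and 017. In the 6 ECM-repaired limbs it ranged from 141 to 217 TPM with a median of 189 TPM. The lowest injured limb, the Hya-repaired limb of pig 017, still stood above both sham limbs, so the groups did not overlap. The same was true of 49.8% of the genes tested, a share that applies to each row below as well. Against sham, 2-Sep was 2.44 ± 0.27 (SE) higher on the log2(TPM + 0.5) scale (limma adjusted p = 1.34e-05). Among all genes in a limb its place by TPM went from 1533 and 1675 in sham to between 430 and 718 in the injured limbs.

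The row 5-Sep, best known from nerve terminals and platelets, differed most from sham among the members. It was at 3.31 and 5.91 TPM in the sham limbs, 29.7 and 35.2 TPM in the non-repaired limbs and 77.2 and 23.6 TPM in the Hya-repaired limbs of pigs 016 and 017. In the ECM-repaired limbs it ranged from 27.3 to 53.1 TPM (median 34.5 TPM). No injured limb fell into the sham range, and the pair of Hya-repaired limbs held both the highest and the lowest injured values. The log2 fold change was 2.91 ± 0.38 (SE), with a limma adjusted p of 5.08e-05.

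The row 1-Sep, a septin of lymphoid cells, was low throughout. It was at 0.313 and 0.635 TPM in the sham limbs, 1.76 and 1.21 TPM in the non-repaired limbs and 1.79 and 1.32 TPM in the Hya-repaired limbs. The ECM-repaired limbs ran from 0.825 to 4.21 TPM with a median of 1.32 TPM, and the highest values belonged to pigs 018 (4.21 TPM) and 024 (3.31 TPM). All 10 injured limbs were above both sham limbs, the lowest by a small margin. Since both sham limbs were under 1 TPM, this row entered the test only through the injured groups. Its log2 fold change was 1.12 ± 0.44 (SE; limma adjusted p = 0.0432), which is the call nearest to the threshold among the members. Leaving out either sham limb, either non-repaired limb or the Hya-repaired limb of pig 016 ended that call, with values from 0.88 to 1.36 over all limbs left out in turn.

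SEPT7, the shared subunit, was at 35.8 and 28.5 TPM in the sham limbs, 97.1 and 136 TPM in the non-repaired limbs and 88.6 and 61.8 TPM in the Hya-repaired limbs. The ECM-repaired limbs ranged from 69.7 to 131 TPM (median 91.0 TPM). All injured limbs were above both sham limbs, with the Hya-repaired limb of pig 017 lowest and the non-repaired limb of pig 023 highest. The row 7-Sep was 1.53 ± 0.25 (SE) higher on the log2 scale (limma adjusted p = 0.000291).

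In the SEPT6 group the most abundant member was 8-Sep. It was at 13.4 and 20.3 TPM in the sham limbs, 57.6 and 79.8 TPM in the non-repaired limbs, 74.2 and 32.9 TPM in the Hya-repaired limbs and 36.1 to 85.1 TPM in the ECM-repaired limbs (median 58.6 TPM). Its groups did not overlap, and its log2 fold change was 1.76 ± 0.34 (SE; limma adjusted p = 0.000951).

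Next, 11-Sep, a widely expressed member of the group, was at 2.18 and 4.47 TPM in the sham limbs, 10.5 and 10.3 TPM in the non-repaired limbs and 12 and 5.44 TPM in the Hya-repaired limbs. The ECM-repaired limbs ran from 7.18 to 15.8 TPM with a median of 9.91 TPM. The lowest injured limb, again the Hya-repaired limb of pig 017, was above both sham limbs. Its log2 fold change was 1.45 ± 0.35 (SE; limma adjusted p = 0.00386), and without the sham limb of pig 025 it was 1.00 and no longer passed (limma adjusted p = 0.107).

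For 6-Sep, the member that names the group, the sham limbs were at 6.47 and 4.18 TPM, the non-repaired limbs at 15.8 and 10.7 TPM and the Hya-repaired limbs at 14.7 and 7.33 TPM. The ECM-repaired limbs ranged from 6.53 to 18.4 TPM (median 14.5 TPM), and the lowest of them, pig 013, was barely above the sham limb of pig 025. Its log2 fold change was 1.15 ± 0.37 (SE; limma adjusted p = 0.0182). Without the sham limb of pig 026 it was 0.86 and did not pass (limma adjusted p = 0.176).

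The row 10-Sep was under 1 TPM in every limb but the ECM-repaired limb of pig 024. It was at 0.284 and 0.132 TPM in the sham limbs, 0.482 and 0.595 TPM in the non-repaired limbs, 0.448 and 0.282 TPM in the Hya-repaired limbs and 0.155 to 1.14 TPM in the ECM-repaired limbs (median 0.399 TPM). The groups overlapped, and the row did not reach the filter of the fit across genes. In a fit without that filter its log2 fold change was 0.45 ± 0.27 (SE; limma adjusted p = 0.202).

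Counted together, all 6 members at 1 TPM or more in every limb were higher in injured than in sham muscle, and 1-Sep was called higher as well. None was called lower. This count stands beside a background in which 49.4% of the 8782 genes tested were called higher and 7.66% lower, and in which the median log2 fold change was 0.73. All 10 injured limbs were above both sham limbs for 7 members, as they were for 49.8% of the genes tested. In the exact two-sided permutation test over limbs, in which 66 arrangements are possible and p cannot go below 0.0152, 2-, 5-, 6-, 7-, 8- and 11-Sep each reached that p of 0.0152. In the same exact permutation test 1-Sep gave p = 0.0303 and 10-Sep p = 0.152.

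Because TPM values add up to a fixed total, and the muscle fiber genes that fill the sham libraries were far lower after injury, the table was also rescaled by trimmed means so that the median gene did not move (median log2 fold change 0.01). On that scale 29% of genes were called higher and 28% lower, and 5 members were called higher and none lower. The log2 fold change became 2.16 ± 0.31 (SE; limma adjusted p = 0.000210) for 5-Sep and 1.65 ± 0.26 (SE; limma adjusted p = 0.000416) for 2-Sep. It became 0.98 for 8-Sep (limma adjusted p = 0.00443), 0.73 for 7-Sep (limma adjusted p = 0.0158) and 0.73 for 11-Sep (limma adjusted p = 0.0137). The values for 1-Sep, 0.68 (limma adjusted p = 0.160), and 6-Sep, 0.40 (limma adjusted p = 0.351), did not pass. The members called on both scales are thus 2-, 5-, 7-, 8- and 11-Sep, and the size of every difference depends on the scale. With 1 sham limb left out as well, an alternative chosen after seeing the data, further members did not pass on the rescaled values. Without pig 025 those not passing were 1-Sep (0.46), 6-Sep (0.83), 8-Sep (0.82) and 11-Sep (0.39). Without pig 026 they were 1-Sep (0.89), 7-Sep (0.42) and 6-Sep, which turned to -0.035. The share of all genes called in those fits is not given here.

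**Figure D2:**
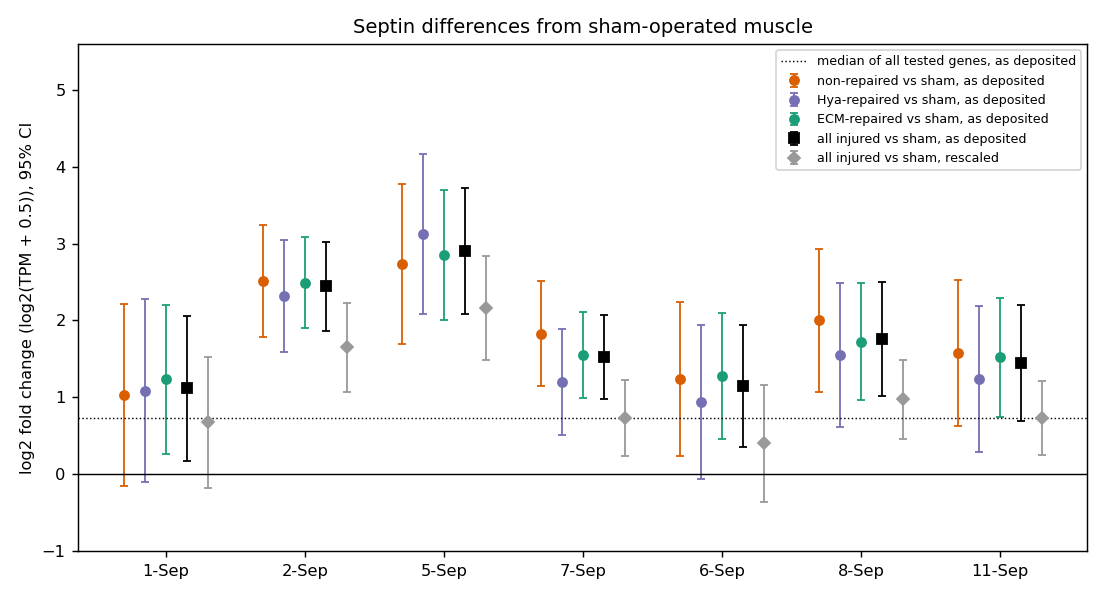
Log2 fold change against sham (y axis, log2(TPM + 0.5) scale) of the 7 tested septins for each injured group, non-repaired, Hya and ECM, and for all injured limbs as deposited, and for all injured limbs after rescaling; whiskers are 95% confidence intervals from limma and the dotted line is the median of all tested genes as deposited, 0.73. The rows 5-Sep and 2-Sep are highest on both scales, and the rescaled intervals of 1-Sep and 6-Sep include 0.

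The summed TPM of the 8 members depends on that scaling, and as deposited it was 89.9 and 100.4 in the sham limbs and 245 to 499 in the injured limbs. The make-up of this sum does not depend on the scaling, since shares and ratios are taken within a limb. The SEPT2 group held 35.3 and 42.6% of the sum in the sham limbs and 47.0 to 62.0% in the injured limbs, without overlap. The share of 5-Sep alone was 3.68 and 5.88% in sham and 7.26 to 15.5% in injured limbs, and that of 2-Sep 31.2 and 36.0% against 38.3 to 50.4%. Both of these shares were likewise apart in all limbs, but they are parts of the SEPT2 group share and not separate observations. How often shares of other genes part the limbs in this way was not examined.

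The share of 7-Sep was 28.4 and 39.9% in sham and 17.7 to 30.4% in injured limbs, and that of the SEPT6 group 24.9 and 29.0% against 16.7 to 25.2%. These 2 ranges overlapped. Set against each other, 2-Sep over 7-Sep was 0.783 and 1.27 in the sham limbs and 1.28 to 2.60 in the injured limbs, so the nearest limbs of the 2 groups almost met. The ratio 8-Sep over 2-Sep was 0.478 and 0.562 in sham and 0.229 to 0.473 in injured limbs, again apart by a small margin. Within the SEPT6 group the ratios overlapped: 6-Sep over 11-Sep was 0.936 and 2.96 in sham and 0.726 to 2.28 after injury. These shares and ratios are descriptions and were not tested, and any sharing of reads between similar septins would move them.

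**Figure D3:**
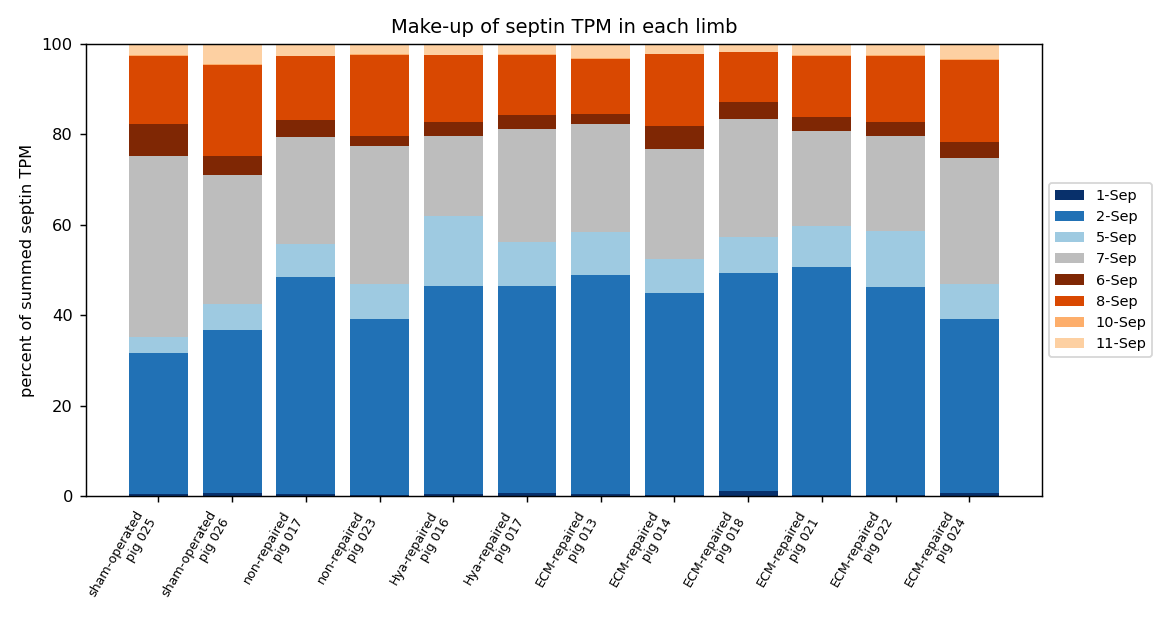
Percent of the summed septin TPM (y axis) held by each member in each of the 12 limbs; blues are the SEPT2 group, grey is 7-Sep and browns are the SEPT6 group. The blue part is at most 42.6% in the sham limbs and at least 47.0% in the injured limbs.

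Each injured group was also set against the same 2 sham limbs, so the 3 comparisons share their controls. In non-repaired limbs 6 members were called higher (all tested but 1-Sep), where 45.1% of genes were. In Hya-repaired limbs 5 were (all tested but 1-Sep and 6-Sep), where 33.9% of genes were, and in ECM-repaired limbs 7 were, where 48% of genes were. These 7 include 1-Sep, which was under 1 TPM in both sham limbs and in the ECM-repaired limb of pig 014 (0.825 TPM). It entered the test only through the non-repaired and Hya-repaired groups. No member was called lower in any of the 3 comparisons. The log2 fold change of 5-Sep was 2.73 in non-repaired, 3.13 in Hya-repaired and 2.85 in ECM-repaired limbs, and that of 2-Sep 2.52, 2.32 and 2.49. The row 7-Sep gave 1.83, 1.2 and 1.55, and 8-Sep 2.0, 1.55 and 1.73. Those of 11-Sep were 1.58, 1.24 and 1.52, of 6-Sep 1.24, 0.93 and 1.27, and of 1-Sep 1.03, 1.09 and 1.24. The non-repaired count was 4 after rescaling and 4 to 6 with single limbs left out: 11-Sep lost its call without either non-repaired limb or the sham limb of pig 025, and 6-Sep without any of these or the sham limb of pig 026 or the ECM-repaired limbs of pigs 018, 021 and 022. The ECM count was 5 after rescaling and 5 without either sham limb, which ended the call of 1-Sep in both cases, of 11-Sep without pig 025 and of 6-Sep without pig 026. The Hya count is the least settled: it fell to 3 after rescaling, to 2 with only those 4 limbs in the fit, to 2 without the Hya-repaired limb of pig 016 and to 3 without the sham limb of pig 025. The shares of all genes called in these rescaled and reduced fits are not given here. The counts from them thus show only how steady the calls were. With 2 limbs against 2, the exact permutation test cannot go below p = 0.333.

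Whether an implant altered septin levels was asked by comparing the injured groups with each other. The ECM-repaired limbs were set against the mean of the 4 other injured limbs, and no member passed, nor did any gene (0% of 8782, with 114 genes at an unadjusted p under 0.05). The difference (ECM minus the others, log2, with its 95% confidence interval) was 0.074 for 2-Sep (-0.40 to 0.54), -0.081 for 5-Sep (-0.75 to 0.59) and 0.18 for 1-Sep (-0.59 to 0.94). For the other members it was 0.040 for 7-Sep (-0.40 to 0.48), -0.051 for 8-Sep (-0.65 to 0.55), 0.11 for 11-Sep (-0.50 to 0.72) and 0.19 for 6-Sep (-0.46 to 0.84). All 7 intervals include 0, and the widest, that of 1-Sep, still allows a difference of up to 0.94. In exact permutation tests over the 210 arrangements of these limbs, p ran from 0.562 for 6-Sep to 0.867 for 8-Sep, with 0.638 for 1-Sep and 0.810 for 10-Sep.

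The pairs of injured groups gave no call either, for members or for any gene: 0% of genes for Hya against non-repaired (196 at an unadjusted p under 0.05), 0% for ECM against non-repaired (71 at an unadjusted p under 0.05) and 0% for ECM against Hya (206 at an unadjusted p under 0.05). As deposited the widest gap for a member was 7-Sep in Hya-repaired against non-repaired limbs, -0.63 on the log2 scale (95% confidence interval -1.32 to 0.056; limma adjusted p = 0.912), where the median of all genes was -0.28. After rescaling it was -0.26, and 5-Sep in the same comparison gave 0.76 (95% confidence interval -0.095 to 1.61; limma adjusted p = 0.973). The order of the injured groups by mean 7-Sep TPM was non-repaired (116 ± 27.3, n = 2), ECM-repaired (96.5 ± 20.5, n = 6) and Hya-repaired (75.2 ± 19.0, n = 2), and the limbs of neighbours in it overlapped. For 5-Sep the order was Hya-repaired (50.4 ± 37.9), ECM-repaired (36.1 ± 9.64) and non-repaired (32.5 ± 3.89), and the limbs overlapped there as well.

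Among the 10 injured limbs the members did not vary as 1 block. On log2(TPM + 0.5), Pearson's r was 0.83 for 8-Sep with 11-Sep, 0.82 for 7-Sep with 8-Sep, 0.77 for 10-Sep with 11-Sep and 0.75 for 2-Sep with 5-Sep (Spearman's rho 0.73, 0.61, 0.79 and 0.89). The row 1-Sep had r from 0.10 to 0.46 against the other members (rho 0.09 to 0.35), and 6-Sep r from 0.17 to 0.72 (rho 0.12 to 0.47). A low value also stood between 5-Sep and 7-Sep (r = 0.25, rho 0.30). For 5-Sep with 10-Sep r was 0.27 but rho 0.62, so that value depends on the measure. Outside the septins, the 3 genes closest to 2-Sep were CLN8, EEF2 and MFSD5 (r = 0.96, 0.94 and 0.94), and those closest to 5-Sep were IRF7, LOC403161 and PPM1G (r = 0.95 each). Closest to 7-Sep were GNPNAT1, DPM1 and LOC100156526 (r = 0.99, 0.98 and 0.98), and closest to 8-Sep RELA, TMEM43 and SNX15 (r = 0.99, 0.98 and 0.98). For 11-Sep they were RBM15B, GLB1L and ZC3H4 (r = 0.97, 0.96 and 0.96), for 6-Sep SPATS2L, RERG and FAM129C (r = 0.94, 0.93 and 0.92), and for 10-Sep DTX3L, LOC100517350 and TCTN1 (r = 0.98, 0.95 and 0.94). For 1-Sep they were PRKCB, a kinase of immune cells, PSMB9, an immunoproteasome subunit, and FRG1 (r = 0.93 each). These are the highest correlations among all genes tested, over 10 limbs of 9 pigs that share a closed TPM total, and they serve as description.

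Septins are placed on membranes and actin by CDC42 and its effectors of the Borg family (CDC42EP1 to CDC42EP5), so these were examined with other regulators and partners. Of 18 genes listed, 11 were in the table and 10 were tested, and against sham 4 were higher and 2 lower (median log2 fold change 0.52, against 0.73 for all genes). After rescaling 2 were higher and 3 lower. Among all genes tested 49.4% were higher and 7.66% lower as deposited, and 29% and 28% after rescaling. CDC42EP5, which binds septins, was at 6.27 ± 4.45 TPM in sham and 111 ± 35.9 TPM in injured limbs, where the lowest limb held 68.4 TPM. Its log2 fold change was 4.08 ± 0.40 (SE; limma adjusted p = 6.75e-06) and 3.34 after rescaling. It passed in all 22 alternative fits, with values from 3.36 to 4.81 when single limbs were left out.

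The other Borg genes did not share that difference. CDC42EP1 was 0.74 higher (limma adjusted p = 0.0493), a call lost in 13 of 22 alternatives and reversed in 3, with -0.036 after rescaling. CDC42EP4 gave 0.69 (limma adjusted p = 0.114), which became 0.90 and passed without the Hya-repaired limb of pig 017 (limma adjusted p = 0.0283). CDC42EP2 gave -0.82 (limma adjusted p = 0.0870) and passed without the ECM-repaired limb of pig 014 (-0.75) or pig 024 (-0.88), and after rescaling (-1.60; limma adjusted p = 0.00199). CDC42EP3 and ANLN, the scaffold that ties septins to the cleavage furrow, were not analysed here. CDC42 itself was 0.70 higher (limma adjusted p = 0.0181), but stood at -0.095 after rescaling and did not pass with either sham limb left out. RHOA, which drives actomyosin contraction, was 1.57 higher (limma adjusted p = 0.000167) and 0.77 after rescaling. The kinases CIT, of the midbody, and ROCK2, a RHOA effector, were lower, with log2 fold changes of -2.04 (limma adjusted p = 0.00925) and -1.31 (limma adjusted p = 0.0225).

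Of the 22 tested genes of cortical actomyosin, which septins bind, 15 were higher and 2 lower (11 and 5 after rescaling), with a median of 1.62. Beside this, 49.4% of all genes were higher and 7.66% lower (29% and 28% after rescaling). ACTB, the cytoplasmic actin, was at 206 ± 43.7 TPM in sham and 1396 ± 373 TPM in injured limbs, 2.62 higher (limma adjusted p = 2.75e-05). ARPC5, of the Arp2/3 complex that branches actin, was 3.58 higher (limma adjusted p = 1.71e-06), and CFL1, which severs filaments, 3.36 higher (limma adjusted p = 6.29e-06). Of the non-muscle myosins, MYH10 was 1.55 higher (limma adjusted p = 0.0158; 0.75 and not called after rescaling, and not called without the sham limb of pig 025) and MYH9 gave 0.83 (limma adjusted p = 0.114), 0.029 after rescaling, 0.30 to 1.36 with single limbs left out (lowest without the sham limb of pig 025, highest without that of pig 026), and 1.2 and called without both limbs of pig 017 (limma adjusted p = 0.0253).

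Of 19 microtubule genes tested, 11 were higher and 3 lower (7 and 6 after rescaling), with a median of 1.17. For these and the intermediate filament genes below, the shares of all genes were 49.4% higher and 7.66% lower (29% and 28% after rescaling). Of the 19 microtubule genes, 2 were under 1 TPM in a sham limb and entered the test through the injured groups. Of those called higher, 9 were at 1 TPM or more in both sham limbs. TUBA1A was 3.57 higher (limma adjusted p = 9.41e-06) and TUBA1B 2.28 higher (limma adjusted p = 3.38e-05). The 7 tested intermediate filament genes were split, with 3 higher and 3 lower (2 and 3 after rescaling) and a median of -0.13. VIM, of mesenchymal cells, was 3.76 higher (limma adjusted p = 9.95e-06), and LMNA, of the nuclear lamina, 2.64 higher (limma adjusted p = 0.000154).

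All 8 tested cytokinesis genes were called higher (7 after rescaling; median 1.48), but 7 of them were under 1 TPM in a sham limb and entered the test through the injured groups. Their levels stayed low: CDK1 was at 0.861 ± 0.517 TPM in sham and 5.53 ± 1.66 TPM in injured limbs, and AURKB at 1.24 ± 0.934 and 3.66 ± 0.524 TPM. The AURKB call was lost without the sham limb of pig 025 (0.85; limma adjusted p = 0.0680). Of 15 genes of vesicle fusion and the exocyst, through which septins meet the secretory path, 8 were higher and none lower (2 and 1 after rescaling), with a median of 0.75, close to that of all genes. Beside the counts of both lists, 49.4% of all genes were higher and 7.66% lower (29% and 28% after rescaling). VAMP8, of endolysosomal and granule fusion, was 3.50 higher (limma adjusted p = 4.74e-06).

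**Figure D4:**
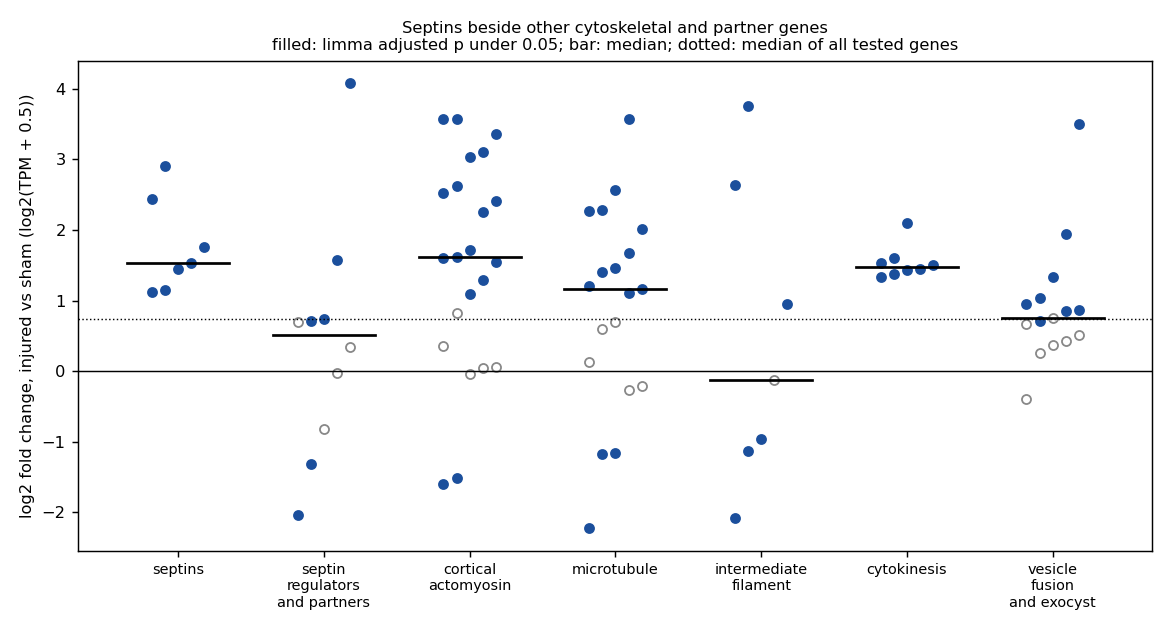
Log2 fold change of injured against sham limbs (y axis, log2(TPM + 0.5) scale, as deposited) for the 7 tested septins and the tested genes of 6 lists; filled points passed at a limma adjusted p under 0.05, open points did not, bars are list medians and the dotted line is the median of all tested genes, 0.73. The septins lie between 1.12 and 2.91, while the regulators run from -2.04 to 4.08.

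The RNA of cell type markers differed between sham and injured limbs, and in whole tissue more cells of a type and more RNA per cell cannot be told apart. Summed TPM of the 11 muscle fiber markers in the table was 135100 and 139395 in sham limbs and 10122 to 68715 in injured limbs, with 8 of 11 markers lower. Beside this and the marker counts below, 49.4% of all genes were higher and 7.66% lower (29% and 28% after rescaling). TNNI2 and TNNC2, fast troponins, gave -2.16 (limma adjusted p = 0.00490) and -2.19 (limma adjusted p = 0.00931), the latter not called with either sham limb left out. The fibroblast markers summed to 1120 and 1569 TPM in sham and 37740 to 98006 TPM in injured limbs, with 7 of 7 higher. COL1A2 was 6.08 higher (limma adjusted p = 3.04e-07) and POSTN 7.33 higher (limma adjusted p = 3.04e-07).

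The macrophage markers summed to 31.6 and 50.1 TPM in sham and 618 to 1621 TPM in injured limbs, with 7 of 7 higher (C1QA by 4.84 and C1QC by 4.67 on the log2 scale; limma adjusted p = 3.04e-07 and 2.64e-07). Between limbs, the Hya-repaired limb of pig 017 had the most muscle fiber marker TPM of the injured limbs, the least fibroblast and macrophage marker TPM, and the lowest 2-, 5-, 7-, 8- and 11-Sep. The Hya-repaired limb of pig 016 had the most fibroblast marker TPM and the highest 2-Sep and 5-Sep. Over all limbs left out in turn, these 2 among them, the log2 fold change of 5-Sep stayed within 2.53 to 3.28 and that of 2-Sep within 2.26 to 2.62. The ends of both ranges came from leaving out a sham limb. The part of cell make-up in the septin differences was not tested.

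For 1-Sep the T and NK lymphocyte markers were set beside it. All 12 were in the table, 6 were tested, each under 1 TPM in a sham limb, and 5 were higher (2 after rescaling). They summed to 4.15 and 7.78 TPM in sham and 18.3 to 90.7 TPM in injured limbs. NKG7, of cytotoxic granules, was 3.14 higher (limma adjusted p = 1.22e-05), and CD4 1.86 higher (limma adjusted p = 0.00377; not called without the sham limb of pig 025). The ECM-repaired limbs of pigs 018 and 024 had the highest marker sums, 90.7 and 44.1 TPM, and the highest 1-Sep, 4.21 and 3.31 TPM. In the other 8 injured limbs the sums ran from 18.3 to 41.2 TPM and 1-Sep did not follow their order. No B cell marker of 5 reached the filter, and their sums were 0.394 and 0.569 TPM in sham and 0.393 to 3.28 TPM in injured limbs.

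**Figure D5:**
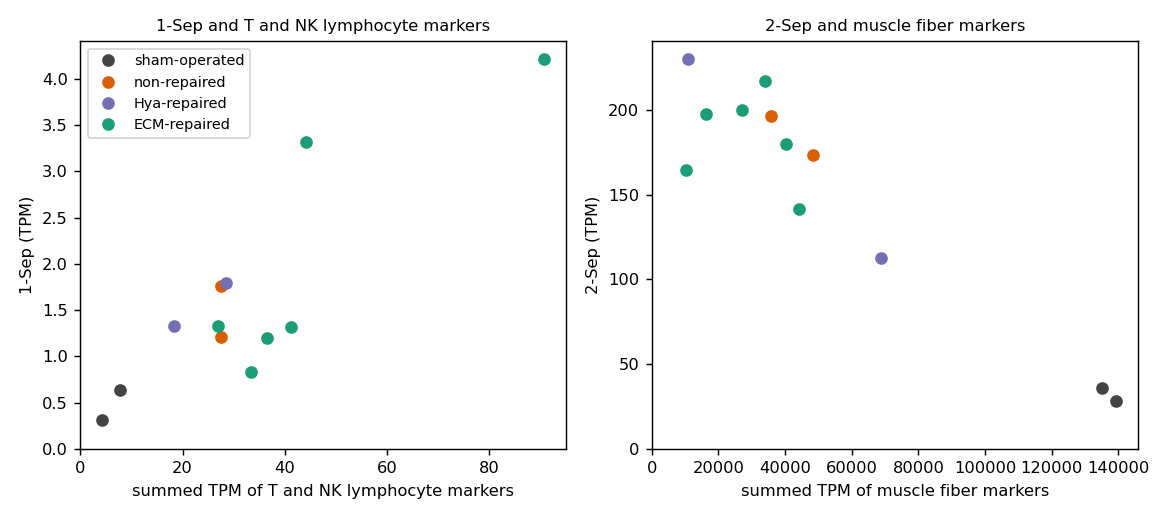
Left, 1-Sep (y axis, TPM) against the summed TPM of 12 T and NK lymphocyte markers (x axis) in each limb; right, 2-Sep (y axis, TPM) against the summed TPM of 11 muscle fiber markers (x axis), coloured by group. On the left the ECM-repaired limbs of pigs 018 and 024 are highest on both axes, and on the right the sham limbs sit alone at 135100 and 139395 TPM of muscle fiber markers and at 36.2 and 28.1 TPM of 2-Sep.

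For 5-Sep the platelet and nerve markers were set beside it, with the endothelial markers of its neighbour CLDN5. Of 6 platelet markers 3 were in the table and 1 was tested: ITGA2B gave 0.48 (limma adjusted p = 0.395). The neighbouring gene GP1BB was at 0.0198 ± 0.0281 TPM in sham limbs and 0.502 ± 0.250 TPM in injured limbs and did not reach the filter, and CLDN5, the neighbour on the other side, gave 0.61 (limma adjusted p = 0.196), or 0.091 without the sham limb of pig 025 and 1.12 without that of pig 026. Of the 7 endothelial markers none was called as deposited (TIE1 gave 0.86, limma adjusted p = 0.163, or 0.089 and 1.63 without the sham limb of pig 025 or 026), and 2 were lower after rescaling. The Schwann cell and nerve markers summed to 18.80 and 20.96 TPM in sham and 33.6 to 152.6 TPM in injured limbs, all 10 above both sham limbs. Of the 5 tested, 3 were under 1 TPM in a sham limb, and 2 were higher, S100B by 1.81 (limma adjusted p = 0.00268) and NEFL, of axons and under 1 TPM in both sham limbs, by 2.87 (limma adjusted p = 0.00463). The part of nerve or platelet RNA in the 5-Sep difference was not tested. Of 3 smooth muscle markers 2 were higher, TAGLN by 2.42 (limma adjusted p = 0.000118) and ACTA2 by 1.26 (limma adjusted p = 0.0145; 0.46 and not called after rescaling, and not called without the sham limb of pig 025). No listed marker in the table was at 0 in every library.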

How the data were processed

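RNA of 12 PT muscle samples was sequenced by the authors as paired-end TruSeq libraries from 1 µg of total RNA. The reads were pseudoaligned with kallisto at default parameters and deposited as TPM per gene. The annotated pig genome used for this was of another build than the one used here for gene positions. The study gives an average read depth over libraries, but with TPM alone the depth behind a single value is not known. Precision is set by how few limbs each group has. The labels' processing notes also name DESeq, whose output was not used here. Genes in the table account for 71.5 to 74.4% of the TPM total in sham libraries and 74.6 to 82.7% in injured libraries, without overlap. The part of this in the higher values after injury was not tested. kallisto splits reads among similar transcripts, which can blur related septins.

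Genes with at least 1 TPM in all limbs of at least 1 group (8782) were tested with limma 3.58.1 (lmFit, eBayes with trend and robust estimation; statmod 1.5.0, R 4.3.3) on log2(TPM + 0.5), with all 12 libraries in 1 fit, a coefficient per group, and Benjamini-Hochberg adjustment over all tested genes (threshold 0.05). Injured means the equal-weight mean of the 3 VML groups. A fold change on this scale understates that of low genes. Exact two-sided permutation tests over limbs used the difference in mean log2(TPM + 0.5) (scipy 1.17.1, Python 3.11.15). Rescaling used trimmed means of log ratios (30% of ratios and 5% of abundances trimmed). The script was tested on simulated data. Values from both limbs of pig 017 were treated as separate samples, and labels alone tie limbs to pigs.

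All N-Sep rows were named. From each list the 2 genes with the smallest p were named, plus CDC42, CDC42EP1 to CDC42EP5, ANLN, MYH9, MYH10, ACTB, VIM and GP1BB, and also CIT and ROCK2, chosen after their values were seen. A gene that this rule names is not reported here. The genes closest to each septin were the 3 tested genes with the highest Pearson's r over the injured limbs. The members and lists were chosen with earlier results of these data known. Alternatives were other pseudocounts (0.1 and 1), no filter, other scalings, other limma settings, only the groups compared, pig 017 left out and each limb left out.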

Additional observations from a re-analysis of the deposited data

How the results depend on the processing

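No paired analysis was possible because replicate numbers follow accession order and only pig 017 gave limbs to 2 groups. Of 757 refits of single septins, 675 kept direction and side of the threshold, 63 lost the call, 2 gained one and 17 turned; of 254 refitted counts 7 moved by over 1.5 times. For injured against sham limbs, 2-Sep and 5-Sep passed in all 22 alternatives. The call of 1-Sep was lost with a pseudocount of 1 (0.83), without the filter (1.12; limma adjusted p = 0.0547) and without both limbs of pig 017 (1.11). Rescaling by trimmed means gave 0.68 for 1-Sep and 0.40 for 6-Sep, and by median ratios 0.67 and 0.39, none of which passed. Leaving out 1 limb gave 0.88 to 1.36 for 1-Sep, 1.00 to 1.89 for 11-Sep and 0.86 to 1.44 for 6-Sep; a lone limb in a group is then assumed to vary like the others. After rescaling and without the sham limb of pig 025, chosen after seeing the data, 3 septins were called (1-Sep 0.46, 11-Sep 0.39, 6-Sep 0.83 and 8-Sep 0.82 were not). Without that of pig 026, 4 were called (1-Sep 0.89, 6-Sep -0.035 and 7-Sep 0.42 were not). The Hya count was 3 under each rescaling and 2 with only those groups, and 2 to 6 with single limbs left out.

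Of 742 refits of named list genes 677 kept direction and side, 39 lost the call, 8 gained one and 18 turned. Those that turned gave, by trimmed means and by median ratios, -0.095 and -0.108 for CDC42, -0.036 and -0.049 for CDC42EP1, -0.068 and -0.081 for CDC42EP4, -0.092 and -0.103 for ITGA2B, and -0.180 and -0.193 for CLDN5. After trimmed means and without the sham limb of pig 025 they gave -0.218 for CDC42EP1, -0.208 for CDC42EP4, -0.357 for MYH9, -0.293 for ITGA2B, -0.563 for TIE1, -0.556 for CLDN5 and -0.054 for ACTA2, and without that of pig 026 -0.297 for CDC42. For ECM-repaired against the other injured limbs, where nothing was called in any alternative, leaving out both limbs of pig 017 turned the difference to -0.149 for 11-Sep, -0.138 for 2-Sep and -0.209 for 7-Sep. Single limbs left out gave -0.036 to 0.330 for 1-Sep, -0.157 to 0.377 for 11-Sep, -0.183 to 0.331 for 2-Sep, -0.504 to 0.342 for 5-Sep, -0.053 to 0.426 for 6-Sep, -0.089 to 0.169 for 7-Sep and -0.342 to 0.239 for 8-Sep, with the Hya-repaired limbs at most of these ends. The study gives an average read depth only, and the depth of each library is not in the table. Its limit on low rows such as 1-Sep and 10-Sep was not worked out.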
